A study of Arabidopsis thaliana with 6 samples.

Results

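The 7 genes described here encode calcium sensors and calcium-linked protein kinases that act in nitrate signalling in Arabidopsis thaliana. They were taken by locus identifier from the 38150 genes in each deposited file and are the kinases CIPK8 (gene-AT4G24400) and CIPK23 (gene-AT1G30270), the sensors CBL1 (gene-AT4G17615) and CBL9 (gene-AT5G47100), and the kinases CPK10 (gene-AT1G18890), CPK30 (gene-AT1G74740) and CPK32 (gene-AT3G57530). The study compared seedlings of the Col-0 wild type (WT) with a nid1 knockout mutant, with 3 RNA-seq libraries of each genotype. All plants of both genotypes were 9 days old and labelled as whole plants, grew on half-strength MS medium with 20 mM nitrate, passed through a nitrate-deficient step and received 0.05 mM nitrate for 6 h, so the series holds no group without the low-nitrate step. Growth was at 23 °C and 60% humidity under a day of 16 h light and 8 h dark. The labels do not give the locus that the mutation removes, so the targeted transcript could not be checked, and they give no separate cultures for the replicates, so the p-values reflect only the spread among these libraries, part or all of which may be technical.

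Calcineurin B-like proteins (CBLs) bind calcium and recruit CBL-interacting protein kinases (CIPKs) to membranes through a short regulatory motif of the kinase. CBL1 and CBL9, which sit at the plasma membrane, activate CIPK23, and CIPK23 phosphorylates the dual-affinity nitrate transporter and sensor NRT1.1 and the potassium channel AKT1. CIPK8 acts in the low-affinity part of the primary nitrate response. Calcium-dependent protein kinases (CPKs) carry the calcium sensor and the kinase in 1 protein, and CPK10, CPK30 and CPK32 phosphorylate the transcription factor NLP7 after nitrate is supplied.

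The coding sequences, from the RefSeq annotation and genome of TAIR10.1, show how close these genes are to each other, which bears on whether their transcripts can be told apart. CBL1 and CBL9 had coding sequences of 642 bases each, with 84.4% identity. Their first 79 coding bases, at chr4:9817142-9817220 on the plus strand for CBL1 and chr5:19131649-19131727 on the minus strand for CBL9, are shown 5′ to 3′ with the 16 differing bases in capitals.
CBL1: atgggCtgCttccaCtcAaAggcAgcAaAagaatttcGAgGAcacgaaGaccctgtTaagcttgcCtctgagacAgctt
CBL9: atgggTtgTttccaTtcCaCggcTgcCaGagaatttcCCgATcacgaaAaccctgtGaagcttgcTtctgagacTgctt

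The CIPK kinases were less alike, with 58.8% identity between CIPK8 and CIPK23 and a longest shared run of 11 bases. Each had 1 in-frame set of asparagine, alanine and phenylalanine codons, the core of the NAF motif by which CIPKs bind CBLs. The 48 coding bases around it, at chr4:12619598-12619645 for CIPK8 and chr1:10657443-10657490 for CIPK23, both on the plus strand, are shown with these codons in capitals.
CIPK8: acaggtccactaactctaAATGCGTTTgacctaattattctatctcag
CIPK23: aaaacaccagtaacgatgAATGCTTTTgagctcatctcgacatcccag

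CPK10 and CPK30 had 83.9% identity and shared the longest run of any pair compared, 44 bases, whereas CPK32 had 65.7% identity with CPK10 and 66.2% with CPK30. That run, with 15 bases on each side and the matching bases of CPK32, is shown with every base that the 3 genes do not share in capitals. It lies on the minus strand in each gene, at chr1:6525258-6525331 in CPK10, chr1:28082010-28082083 in CPK30 and chr3:21298873-21298946 in CPK32, and CPK32 differed from the shared run at 5 bases.
CPK10: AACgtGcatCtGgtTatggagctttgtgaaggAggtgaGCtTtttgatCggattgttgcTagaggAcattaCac
CPK30: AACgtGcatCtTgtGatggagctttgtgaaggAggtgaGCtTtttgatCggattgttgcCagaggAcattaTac
CPK32: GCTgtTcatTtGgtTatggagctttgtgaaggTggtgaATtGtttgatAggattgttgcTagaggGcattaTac

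No window of 101 bases, the read length, of any of the 7 transcripts occurred more than once in the genome, and none was shared between the 7. Only exact matches were sought. Windows that cross an exon junction are absent from genomic sequence, so the genome search says nothing about them. They were compared only among the 7, not with transcripts of other genes. Overlap with other genes was a larger matter for CPK10. On chromosome 1, CPK10 (6522764 to 6526075, minus strand) shares 605 exonic bases with the nitrate transporter gene NRT1.9 (AT1G18880) and 671 with the long non-coding RNA AT1G05453, both on the opposite strand, so 47.6% of its 2681 exonic bases are shared. The libraries were made with a stranded kit, but no source used here states the strand setting of the counting, and the value of CPK10 is uncertain for this reason. NRT1.9 measured 32.8 ± 2.71 FPKM in WT and 34.5 ± 1.87 in nid1 (SD, n = 3 each), and AT1G05453 27.0 ± 1.46 and 25.6 ± 2.27, levels near that of CPK10. CPK30 (chromosome 1, 28079946 to 28082671, minus strand) shares 42 exonic bases with AT1G74730 and CBL1 (chromosome 4, 9816278 to 9819368, plus strand) 29 with AT4G17616. CIPK8 (chromosome 4, 12616979 to 12620714, plus strand), CIPK23 (chromosome 1, 10654800 to 10658924, plus strand), CBL9 (chromosome 5, 19129640 to 19132304, minus strand) and CPK32 (chromosome 3, 21296457 to 21299704, minus strand) share no exonic base with another gene.

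Over the whole series, FPKM (the authors' deposited unit, which divides fragments by the length of the transcript and the number mapped in the library) summed to between 730062 and 964273 per library, with the highest sum in WT replicate 2. In a principal component analysis of the 20533 tested genes that library lay far from the other 5 on the leading component (38.3% of the variance). No fragment counts were used here, so no counting interval is given. Of 8 root markers 8 were listed above 0 in every library, though the potassium channel gene SKOR did not pass 0.266 FPKM, and 6 of 6 shoot markers were above 0. The summed root markers lay between 3655 and 4263 FPKM in WT and between 3019 and 3155 in nid1, and nearly all of this sum was the beta-glucosidase gene PYK10. Without PYK10 the sums overlapped, at 226 to 271 FPKM in WT and 256 to 267 in nid1, and the median log2 change of the 7 tested root markers was 0.021, with 4 above 0. The summed shoot markers lay between 145 and 175 FPKM in WT and between 232 and 449 in nid1. The median log2 change of the 6 shoot markers was 0.97, with 6 above 0 and 0 called by the rule given below. Among them the Rubisco small subunit gene RBCS1A measured 87.4 to 258 FPKM over the 6 libraries. The Rubisco activase gene RCA measured 35.1 to 79.0, LHCB1.1 5.94 to 53.2, LHCB2.2 7.91 to 32.9 and GLK1 6.39 to 23.9 FPKM. The leaf carbonic anhydrase gene CA1 did not pass 1.44 FPKM, while PYK10 measured 2752 to 3993 FPKM. Markers of both organs were thus present, but the share of each organ in the RNA was not tested. The shoot sums differed between the genotypes without overlap. So did PYK10 and the root marker MYB36, both lower in nid1, and SKOR, which was higher in nid1 but low in every library. The part of these differences in the values below was not tested. In such bulk samples fewer cells of a type and less RNA per cell cannot be told apart.

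All 7 genes were expressed in every library, and none was called as different between nid1 and WT. A gene was called at a Benjamini-Hochberg adjusted p under 0.05 over the 20533 genes that reached 1 FPKM in 3 or more libraries, from limma on log2(FPKM + 1). This rule called 0 of the 7 genes and 0.0877% of all tested genes. At an unadjusted p under 0.05 the count was 0 of 7, against 6.21% of all tested genes. The libraries of the genotypes did not overlap for 1 of the 7, CPK30, against 10.3% of all tested genes. The median log2 change of the 7, nid1 against WT, was -0.023, with 5 below 0 and 2 above, and that of all tested genes was 0.00022. Without WT replicate 2 the median of the 7 was -0.12.

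**Figure D1:**
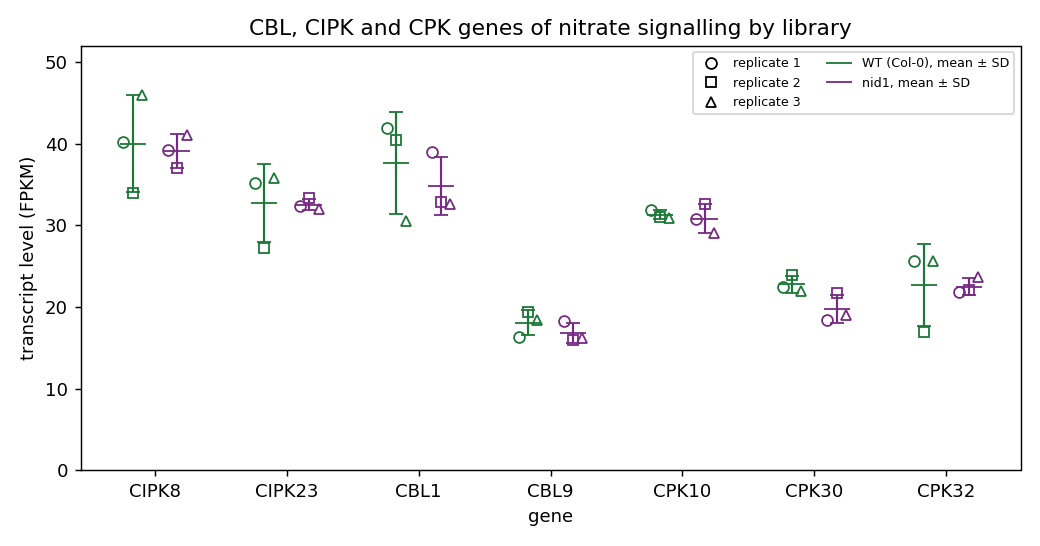
FPKM of the 7 genes in each library, with open symbols for replicates 1, 2 and 3 and horizontal marks with bars for the mean and SD of each genotype (n = 3). The genotypes overlap for all but CPK30, and replicate 2 of WT is the lowest WT point for CIPK8, CIPK23 and CPK32.

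The sensors CBL1 and CBL9 had slightly lower means in nid1, within the spread of the replicates. CBL1 measured 41.9, 40.5 and 30.5 FPKM in WT replicates 1, 2 and 3 and 39.0, 32.8 and 32.6 FPKM in the same order in nid1. The lowest of all 6 values was a WT one, and the ranges overlapped. Limma gave a log2 change of -0.10 (SE 0.154, 95% interval -0.46 to 0.26, adjusted p = 1.00), which moved to -0.018 when WT replicate 1 was left out, to -0.043 when WT replicate 2 was and to -0.24 when WT replicate 3 was.

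CBL9 measured 16.4, 19.4 and 18.4 FPKM in WT and 18.2, 16.0 and 16.2 FPKM in nid1. WT replicate 1 lay inside the nid1 range. Its log2 change was -0.10 (SE 0.120, 95% interval -0.38 to 0.18, limma adjusted p = 1.00), and -0.05 without WT replicate 2. CBL1 was the more abundant of the pair in every library, on the FPKM scale, which is per length. The ratio of CBL1 to CBL9 was 2.10 ± 0.452 in WT and 2.07 ± 0.0590 in nid1 (SD, n = 3 each). Its highest and lowest values, 2.56 and 1.65, were WT replicates 1 and 3, and the nid1 values lay between them.

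CIPK23, the kinase that these sensors activate, had nearly the same mean in both genotypes. It measured 35.2, 27.2 and 35.9 FPKM in WT replicates 1, 2 and 3 and 32.4, 33.3 and 31.97 FPKM in nid1. WT replicate 2 was the lowest library, the other WT values were the highest, and nid1 lay between. The log2 change was 0.00092 (SE 0.135, 95% interval -0.31 to 0.31, limma adjusted p = 1.00). Without WT replicate 2 it was -0.12, with an unadjusted limma p of 0.2. At the bounds of the interval FPKM + 1 in nid1 would be 0.806 or 1.24 times that in WT.

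CIPK8, a kinase of the low-affinity response, was the most abundant of the 7 by mean. Its values were 40.2, 34.0 and 45.9 FPKM in WT and 39.3, 37.0 and 41.1 FPKM in nid1. WT replicate 2 was the lowest and WT replicate 3 the highest, with the nid1 values inside that range. The log2 change was -0.023 (SE 0.138, 95% interval -0.34 to 0.30, limma adjusted p = 1.00), -0.13 without WT replicate 2 and 0.079 without WT replicate 3. The ratio of CIPK23 to CIPK8 was steady, between 0.778 and 0.900 over the 6 libraries, with means of 0.819 ± 0.0501 in WT and 0.834 ± 0.0615 in nid1 (SD, n = 3 each).

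Among the CPK kinases, CPK10 varied least of the 7 genes within genotypes. It measured 31.9, 31.0 and 31.0 FPKM in WT and 30.7, 32.6 and 29.1 FPKM in nid1. The highest and the lowest library were both nid1. Its within-genotype SD on the log2(FPKM + 1) scale was 0.0596, at percentile 2.66 of all tested genes, whose median was 0.193. The log2 change was -0.023 (SE 0.107, 95% interval -0.27 to 0.22, limma adjusted p = 1.00), and 0.017 without nid1 replicate 3.

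CPK30, its closest relative here, had the lowest log2 change of the 26 tested CPK genes, but it was not called. It measured 22.5, 23.9 and 22.0 FPKM in WT and 18.4, 21.7 and 19.1 FPKM in nid1. Each nid1 value lay below each WT value, with 21.7 in nid1 replicate 2 next to 22.0 in WT replicate 3. Such a separation towards lower values in nid1 was seen in 4.79% of all tested genes. The log2 change was -0.20 (SE 0.114, 95% interval -0.46 to 0.064, limma unadjusted p = 0.119, adjusted p = 0.970). It lay between -0.27 and -0.16 when single libraries were left out. The ratio of CPK30 to CPK10 was 0.728 ± 0.0374 in WT and 0.640 ± 0.0350 in nid1 (SD, n = 3 each). The ratio was lower in each nid1 library, at 0.600, 0.664 and 0.656, than in each WT library, at 0.704, 0.771 and 0.709, and its difference was not tested. It reuses the CPK30 values above with the uncertain CPK10 value, so it is not a separate result.

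CPK32 had almost equal means, with a wide spread in WT. It measured 25.6, 16.9 and 25.7 FPKM in WT replicates 1, 2 and 3 and 21.8, 22.0 and 23.7 FPKM in nid1. WT replicate 2 lay far below the other 5 libraries, and the other WT values lay above all nid1 values. The log2 change was 0.010 (SE 0.171, 95% interval -0.39 to 0.41, limma adjusted p = 1.00). Without WT replicate 2 it was -0.18, with an unadjusted limma p of 0.093 and an adjusted p of 0.443. The ratio of CPK32 to CPK30 was 0.708 in WT replicate 2 and between 1.02 and 1.24 in the other 5 libraries. The ratio of CPK32 to CPK10 was likewise lowest in WT replicate 2, at 0.546, against 0.675 to 0.829 elsewhere.

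**Figure D2:**
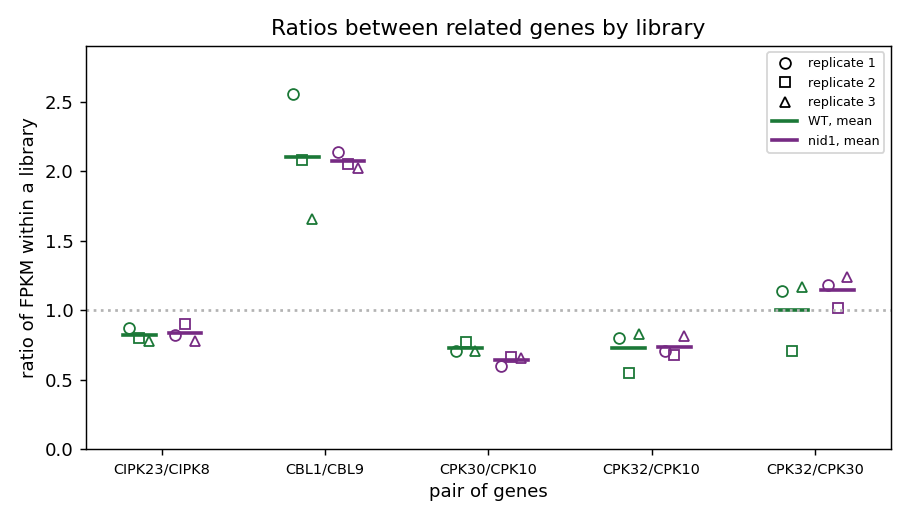
Ratios of FPKM between related genes within each library, with open symbols for replicates and horizontal lines for the mean of each genotype. CBL1 was 1.65 to 2.56 times CBL9, the CIPK23 to CIPK8 ratio stayed between 0.778 and 0.900, and the CPK30 to CPK10 ratio is the one that does not overlap between the genotypes.

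By level the 7 genes formed an upper group of 4 and a lower group of 3. In WT the order by mean FPKM was CIPK8 (40.0 ± 6.00), CBL1 (37.6 ± 6.22), CIPK23 (32.8 ± 4.81), CPK10 (31.3 ± 0.555), CPK30 (22.8 ± 1.00), CPK32 (22.7 ± 5.03) and CBL9 (18.1 ± 1.55; SD, n = 3 each). The order in nid1 was CIPK8 (39.1 ± 2.04), CBL1 (34.8 ± 3.58), CIPK23 (32.6 ± 0.685), CPK10 (30.8 ± 1.78), CPK32 (22.5 ± 1.01), CPK30 (19.7 ± 1.71) and CBL9 (16.8 ± 1.25). Neighbours within the upper group had overlapping ranges in both genotypes. CIPK8 was nevertheless above CIPK23 in each of the 6 libraries, and the ranges of CIPK8 and CPK10 did not overlap in either genotype. CPK10 and the gene below it did not overlap in either genotype. In the lower group neighbours overlapped in WT and did not overlap in nid1. By mean over the 6 libraries CIPK8 stood at percentile 79.0 of tested genes and CBL9 at percentile 59.2.

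**Figure D3:**
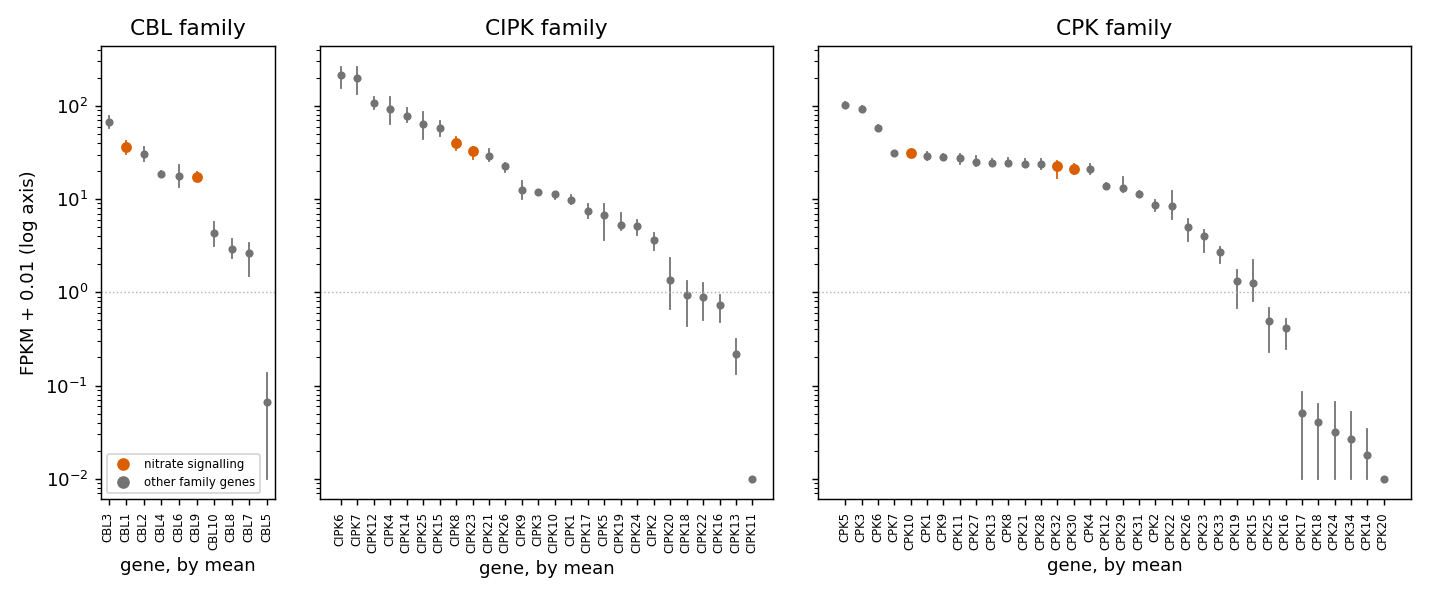
Mean FPKM over the 6 libraries (points) and the range from the lowest to the highest library (vertical lines) for the CBL, CIPK and CPK families, with 0.01 added for the log axis and a dotted line at 1 FPKM. The 7 genes of nitrate signalling, in orange, lie in the upper and middle part of each family.

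The rest of each family gives the setting for these levels. CBL1 ranked 2 and CBL9 6 among the 10 CBL genes, behind CBL3, whose product is a sensor of the vacuolar membrane, at 66.8 FPKM over the 6 libraries. CBL2, a second vacuolar sensor, averaged 30.7 FPKM, and CBL4, the salt tolerance sensor also known as SOS3, 18.4 FPKM. CBL1 and CBL9 together made up 28.5 ± 1.98% of the summed CBL FPKM in WT and 26.1 ± 2.73% in nid1 (SD, n = 3 each), with overlapping ranges. CIPK8 and CIPK23 ranked 8 and 9 of 26 CIPK genes and held 7.29 ± 2.21% of the family's sum in WT and 7.31 ± 1.07% in nid1. The lowest of these shares, 5.05%, was WT replicate 2.

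The most abundant CIPK transcripts were CIPK6, whose product acts on a potassium channel with CBL4, at 212 FPKM over the 6 libraries, CIPK7 at 199 FPKM and CIPK12 at 108 FPKM. CIPK11 was listed at 0 in all 6 libraries. CPK10, CPK32 and CPK30 ranked 5, 14 and 15 of 34 CPK genes, below CPK5 at 102 FPKM, CPK3 at 92.8 FPKM and CPK6 at 58.6 FPKM, kinases known from defence and guard cell responses. The 3 nitrate kinases held 11.6 ± 0.460% of the summed CPK FPKM in WT and 11.2 ± 0.259% in nid1. CPK20 was listed at 0 in every library.

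None of the other family members was called either. Of 10 CBL genes 9 were tested, 0 were called and 0 had an unadjusted limma p under 0.05, with a median log2 change of -0.012. Without WT replicate 2 the count at an unadjusted p under 0.05 was 2, CBL2 and CBL10, and the median 0.070. Without nid1 replicate 1 the count was 1, CBL10, and the median 0.027. In all 6 libraries both genes had overlapping ranges between the genotypes. Of 34 CPK genes 26 were tested, with 0 called, 0 at an unadjusted p under 0.05 and a median of -0.0020, which lay between -0.013 and 0.031 when single libraries were left out. Of 26 CIPK genes 22 were tested and 0 were called, with a median of -0.011, 11 above 0 and 11 below, and the median lay between -0.053 and 0.029 when single libraries were left out. An unadjusted limma p under 0.05 was reached by 3 of these 22 genes, against 6.21% of all tested genes. CIPK20 was low, at 0.991, 0.902 and 0.647 FPKM in WT and 1.07, 2.30 and 2.19 FPKM in nid1 (log2 change 0.60, limma adjusted p = 0.594). It passed the filter of 1 FPKM in 3 libraries only through nid1, so its lack of overlap follows from the filter. CIPK25 measured 73.1 ± 12.6 FPKM in WT and 54.4 ± 9.63 in nid1 (limma adjusted p = 0.794), and CIPK12 118 ± 7.41 and 97.2 ± 4.18 FPKM (limma adjusted p = 0.794; SD, n = 3 each). The genotypes did not overlap for 4 of the 22 tested CIPK genes, these 3 among them, against 10.3% of all tested genes. For CIPK25 the highest nid1 value, 62.3 FPKM, was next to the lowest WT value, 62.5 FPKM. The CIPK count at an unadjusted limma p under 0.05 fell to 0 without nid1 replicate 2 or without nid1 replicate 3, and to 1 without WT replicate 1.

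**Figure D4:**
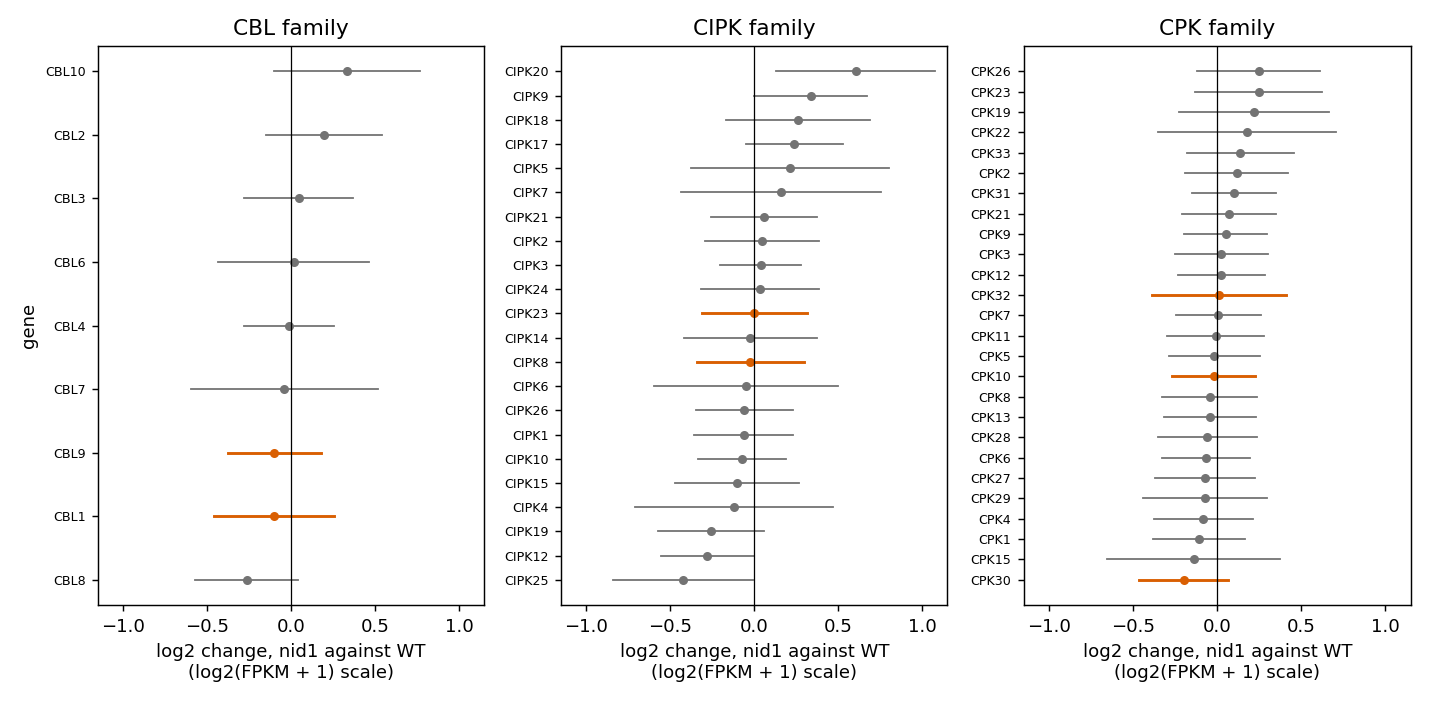
Log2 change of nid1 against WT on the log2(FPKM + 1) scale (points) with the 95% interval from limma (lines) for every tested CBL, CIPK and CPK gene, the 7 genes of nitrate signalling in orange. The intervals of all 7 include 0, and CPK30 lies lowest in its family at -0.20.

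The transcripts of 15 further genes, called partners here, were followed, and all were tested and none called. Their proteins are acted on by these kinases, act with them or belong to the nitrate response. The median log2 change of the 15 was -0.0089, with 9 below 0 and 6 above, but leaving out WT replicate 2 took it to -0.13, and leaving out WT replicate 1 took it to 0.053. NRT1.1, the target of CIPK23, measured 121, 133 and 138 FPKM in WT and 105, 107 and 105 FPKM in nid1. Every nid1 value lay below every WT value, and the log2 change was -0.31 (SE 0.119, limma unadjusted p = 0.0335, adjusted p = 0.727). SLAH3, an anion channel that passes nitrate, measured 30.4, 17.5 and 34.7 FPKM in WT and 17.2, 16.9 and 19.3 FPKM in nid1. WT replicate 2 lay inside the nid1 range, and the log2 change of -0.55 (limma adjusted p = 0.798) became -0.83 without that library (limma adjusted p = 0.067).

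IRT1, the root iron transporter, which CIPK23 phosphorylates, measured 2.58, 2.44 and 2.91 FPKM in WT and 1.00, 0.131 and 0.0420 FPKM in nid1. It was the lowest of the 15 in nid1 against WT, with a log2 change of -1.45 (SE 0.246, limma unadjusted p = 0.000398, adjusted p = 0.164). Without nid1 replicate 1, the highest nid1 library, limma called it at an adjusted p of 0.0169. Leaving out any other single library gave a limma adjusted p between 0.121 and 0.706. IRT1 was near the floor in nid1, where only replicate 1 reached the filter of 1 FPKM. The size of its change depended on the pseudocount, at -3.05 with 0.1. The genes NRT1.1, SLAH3 and IRT1 were the 3 of 15 at an unadjusted limma p under 0.05, SLAH3 at 0.0487, where 6.21% of all tested genes were. That count rose to 6 when WT replicate 2 was left out, with AMT1;1, AMT1;2 and NLP7 added, was 2 when WT replicate 1 was, and was 1 when WT replicate 3 or any 1 nid1 library was.

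The other partners had overlapping values. NLP7, the substrate of the CPK kinases, measured 18.3, 12.2 and 21.3 FPKM in WT and 13.7, 14.9 and 16.4 FPKM in nid1, and its relative NLP6 12.8, 7.37 and 12.05 FPKM in WT and 10.7, 11.4 and 11.9 FPKM in nid1. The potassium channel AKT1 averaged 40.4 FPKM over the 6 libraries and the potassium transporter HAK5 3.26 FPKM. The ammonium transporters AMT1;1, which CIPK23 phosphorylates, and AMT1;2 averaged 323 and 31.4 FPKM. The anion channel SLAC1 averaged 3.69 FPKM and ABI2, a phosphatase that acts on CIPK23, 13.3 FPKM. The calcium channel CNGC15 averaged 3.23 FPKM, AT3G60320 21.6 FPKM and the nitrate response factors TGA1 and TGA4 47.9 and 17.9 FPKM.

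WT replicate 2 set much of the spread among these genes. It was the lowest of the 6 libraries for 3 of the 7 genes, CIPK8, CIPK23 and CPK32, and for 8 of the 15 partners, NLP6 and NLP7 among them. Over all tested genes WT replicate 2 was the lowest library for 22.9% and the highest for 37.3%. On the log2(FPKM + 1) scale it deviated from the 6-library mean by -0.39 for CPK32, -0.25 for CIPK23 and -0.21 for CIPK8. For NLP6, NLP7 and AMT1;2 the deviations were -0.50, -0.35 and -0.51. CBL1, CBL9 and CPK30 went the other way in this library, at 0.17, 0.15 and 0.17, and CPK10 stayed at -0.0023.

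**Figure D5:**
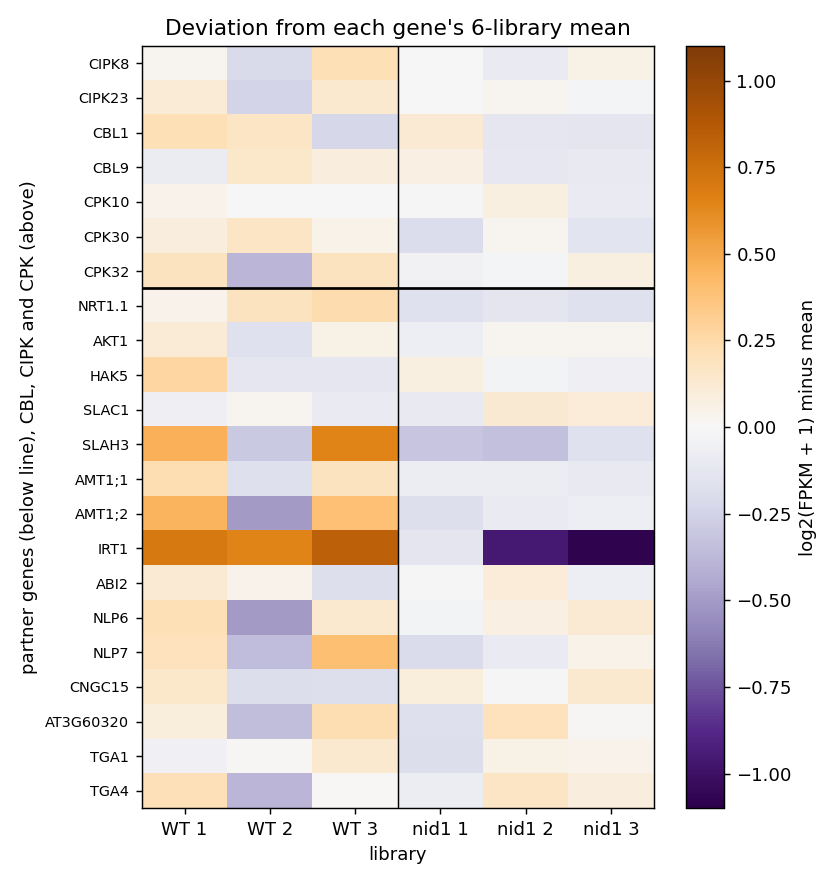
Deviation of each library from the gene's own 6-library mean on the log2(FPKM + 1) scale, for the 7 genes (above the line) and 15 partners (below it). In WT replicate 2 CPK32, NLP6 and AMT1;2 are at -0.39, -0.50 and -0.51, while CBL1, CBL9 and CPK30 are above 0.

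The genes whose profile over the 6 libraries was most like that of each of the 7 were sought among 15191 other tested genes with a mean of at least 5 FPKM. Likeness was the root mean square difference of log2(FPKM + 1) after centring each gene on its mean, where smaller is closer. CPK32 had the closest match of the 7, AT4G16150, at 0.0126. AT4G16150 measured 32.8, 21.9 and 32.8 FPKM in WT and 27.8, 28.8 and 30.0 FPKM in nid1, with the same low value in WT replicate 2. CIPK23 was closest to AT5G55670 (0.0180), CIPK8 to the actin gene ACT3 (0.0282) and CPK10 to AAE7 (0.0180). CBL1 was closest to PDLP4 (0.0384), CBL9 to RIN13 (0.0277) and CPK30 to AT3G47670 (0.0285). With only 6 libraries, several genes came near by this measure, from 4 within 0.05 of CBL1 to 156 within 0.05 of CPK10. The measure was not scaled by each gene's spread, so genes that vary little over the libraries lie near each other by it. CPK10 varied least of the 7 within genotypes.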

How the data were processed

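Per the labels' protocols, stranded mRNA libraries were read as 101 bp pairs. The deposited values are FPKM, 1 per gene and library, with the unit taken from the submitters' processing notes, the Cuffdiff column name in the file headers and the values. The notes name bcl2fastq 2.20, Bowtie, TopHat2 2.0.13 and Cuffdiff 2.2.1, without roles; no source used here states the build, strand setting or library scaling. The authors' FPKM estimates divide fragments among overlapping transcripts, so overlapping genes are uncertain. Of 38150 identifiers, 37932 equalled gene identifiers of the RefSeq annotation of TAIR10.1, and its coordinates and sequences are used, with the earliest RefSeq transcript of each gene. The tests here used limma 3.58.1 in R 4.3.3 (lmFit, eBayes with a trend) on log2(FPKM + 1), two-sided, with genotype as the term, over the 20533 genes that reached 1 FPKM in 3 or more libraries. Coding sequences were aligned with Biopython 1.88. The fit was tested on simulated data. The 7 genes and all lists were chosen with earlier results of these data known. Named were the 7 genes, all partners, the 3 most abundant other genes of each family, family genes at an unadjusted p under 0.05 and the closest profile to each of the 7; tissue markers, CBL10, genes listed at 0 and genes overlapping the 7 were named after their values were seen.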

Additional observations from a re-analysis of the deposited data

How the results depend on the processing

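None of the 7 genes was called, and none reached an unadjusted limma p under 0.05, in the fit described or in any of 14 alternatives: a pseudocount of 0.1 or 0.5, a filter of 0.1 FPKM or none, rescaling by median ratios or the upper quartile, no trend, a replicate block, and leaving out each library. Of 98 log2 changes of the 7 under these alternatives, 88 kept their direction and 10 changed it, all for CIPK8, CIPK23, CPK10 or CPK32. CIPK23 was at -0.00071 after rescaling by median ratios and at -0.010 by the upper quartile, and CPK32 at -0.0015 by the upper quartile. Leaving out single libraries gave -0.13 to 0.079 for CIPK8, -0.12 to 0.069 for CIPK23, -0.063 to 0.017 for CPK10 and -0.18 to 0.11 for CPK32. CBL1, CBL9 and CPK30 stayed below 0 throughout. The cause of these changes was not tested. Partner calls ranged from 0 to 1, and no CBL, CIPK or CPK gene was called under any of the alternatives. The partner count at an unadjusted limma p under 0.05 was 2, without SLAH3, under either other filter, either rescaling or no trend. Over all genes the calls numbered 18, 8 to 35 without single libraries, and 70 with the replicate block. Deviations of same-numbered libraries correlated at -0.010, 0.13 and 0.30, and those of differently numbered libraries at -0.38 to 0.22. Not every library correlated best with its own number. So few libraries cannot show whether the numbers pair the samples, and the fit described took them as unpaired. With 3 libraries a genotype, the lowest bound among the 95% intervals of the 7 genes was 0.724 times the WT level of FPKM + 1, for CPK30. The highest bound was 1.33 times, for CPK32. The interval differed by gene and was narrowest for CPK10, at 0.830 to 1.17 times. Differences inside a gene's own interval were not resolved.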
